A study of Homo sapiens with 4 samples.

Results

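The interaction of IL-1 and trichostatin A (TSA) was measured in SW1353 cells, a line grown from a human chondrosarcoma and used as a stand-in for chondrocytes. For each gene the interaction was the response to IL-1 with TSA present minus the response with TSA absent, both on the log2 scale, so that a gene at 0 responded to the 2 agents additively. A gene entered where a probe annotated to it was detected (detection p-value under 0.01) on 1 or more of the arrays, which gave 10128 of the 18661 genes named by the annotation. The 4 conditions were IL1_TSA (TSA at 250 ng/ml from 1 h before IL-1α, then 6 h of IL-1α), Con_TSA (TSA without IL-1), IL1 (IL-1α for 6 h without TSA) and Con (vehicle, DMSO). All cells were held overnight in serum-free medium. Each condition was 1 array of 1 culture of 1 cell line, so no value has an error between cultures, no difference has a replicate check and no p-value is given. The labels give 6 h of IL-1 and the study's legends name a longer stimulation, and the labelled time is used here.

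IL-1 binds a receptor whose adaptor MyD88 and IRAK kinases activate NF-κB and MAP kinases, and in cartilage cells it is known for inducing the metalloproteinases that degrade collagen and aggrecan. NF-κB induces its own inhibitor, IκBα, as feedback. It also takes part in inducing interferon β, which acts back on the cell through the JAK/STAT pathway and the interferon-stimulated response element (ISRE) in the promoters of antiviral genes. TSA inhibits the zinc-dependent histone deacetylases, and inhibitors of this class are known both to raise silent genes and to reduce many cytokine-induced ones.

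Between 26.8% and 28.8% of probes were detected on each array, with median raw intensities between 86.9 and 113. Of 20 chondrocyte markers, 4 were analysed (SOX9, HAPLN1, COL11A1 and MATN2), each detected on all 4 arrays, and no annotated probe of the defining genes COL2A1 or ACAN was detected. Of 12 fibroblast markers, 11 were analysed, and of 13 macrophage and leukocyte markers 3 were. No member of any marker list was counted as departing from additivity. The 12 reference genes analysed had a median interaction of -0.04, with none counted, against 1.2% of all genes above and 2.17% below.

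The bulk of the genes lay close to additivity. The median interaction of all 10128 genes was 0.05, the middle 50% of genes lay between -0.22 and 0.32, and the outer percentiles (1% and 99%) were -2.19 and 1.30. A gene was counted where the departure was at least 2-fold (1 on the log2 scale) and still 2-fold after levels of undetected genes were raised to the lowest level of a detected probe on the same array. By this rule 122 genes (1.2%) lay above the additive value and 220 genes (2.17%) below it. Of these, 4 of the genes above and 56 of the genes below belonged to any of the 26 gene lists. Most counted genes therefore lay outside the families described in the lists. The 2 directions were unequal in size as well: 50 genes lay at least 4-fold below and 2 at least 4-fold above, 18 at least 8-fold below and 0 above, and 8 at least 16-fold below and 0 above. The median over the counted genes was 1.18 above and -1.42 below, which describes genes chosen for their departure. The split of the counts depended on the scaling of the arrays. With each array scaled to the same median in place of quantile normalisation, the median interaction of all genes moved to 0.44 and the counts became 698 above and 117 below. With that shift of the median taken out, they were 134 above and 219 below. The authors' deposited values gave 11 above and 89 below. All signs and counts that follow are therefore relative to the bulk of the genes.

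**Figure D1:**
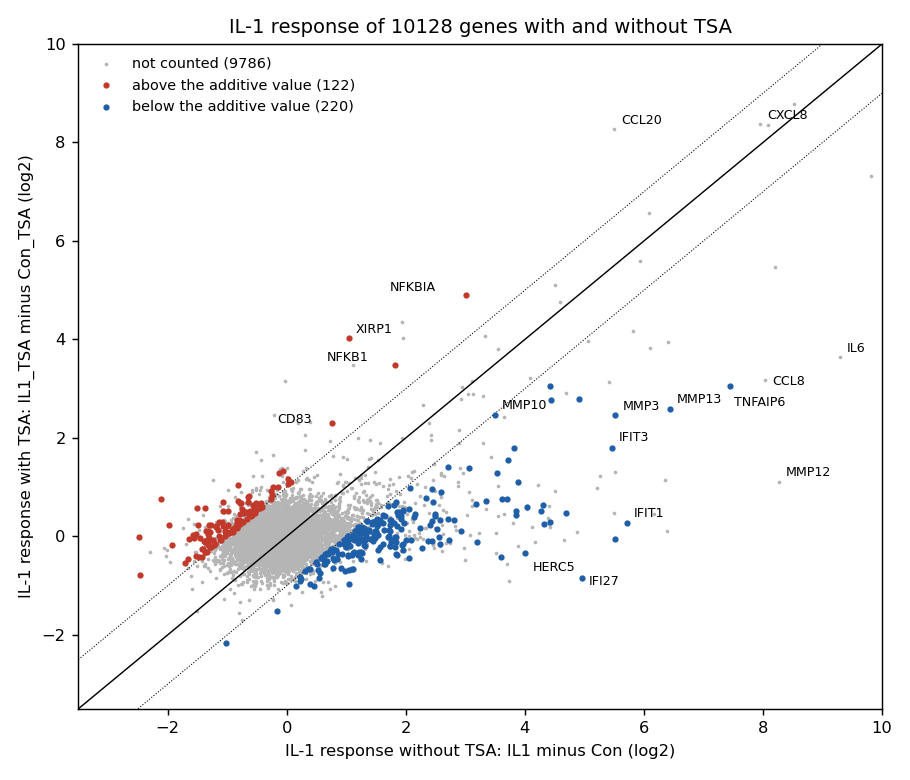
IL-1 response with TSA (IL1_TSA minus Con_TSA, vertical axis, log2) against the IL-1 response without TSA (IL1 minus Con, horizontal axis, log2), 1 point per gene. The solid line is additivity and the dotted lines are 2-fold departures. The 220 genes below the line spread far along the horizontal axis, while the 122 above mostly sit left of 0, with XIRP1, NFKBIA, NFKB1 and CD83 apart from them. Uncoloured genes outside the dotted lines, such as MMP12, IL6 and CCL20, were undetected on an array that the counting rule needs or came under 2-fold as a bound.

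The counted genes were then placed by whether each IL-1 response, on the measured levels, was up, down or within 1.5-fold. Because the interaction is made of these same 2 responses, the placing describes the shape of the departure and is no further evidence of it. Of the 220 genes below, 167 were within 1.5-fold with TSA and up without it, 28 were up in both, and 8 were down with TSA and up without it. Another 13 were down with TSA and within 1.5-fold without it, 3 were within 1.5-fold in both and 1, TXNIP, was down in both. Of the 122 genes above, 87 were within 1.5-fold with TSA and down without it, 17 were up with TSA and within 1.5-fold without it, and 9 were up with TSA and down without it. A further 4 (XIRP1, NFKBIA, NFKB1 and CD83) were up in both, 4 were within 1.5-fold in both, and 1, MAP7D2, was down in both. With undetected levels raised to the lowest detected one, 168 of the genes below were within 1.5-fold with TSA and up without it, 6 were down with TSA and up without it, and 8 of the genes above were up with TSA and down without it. The commonest shape in both directions was an IL-1 response, whether upward or downward, that was seen without TSA and was under 1.5-fold with it.

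Of the lists, the interferon response genes had the lowest median departure. Of 56 analysed, 29 were counted below and 0 above, against 2.17% of all genes below, and all 56 had an interaction under 0, between -6.29 and -0.13. Their median interaction was -2.83, against 0.05 over all genes. The median IL-1 response of the list was 0.08 with TSA and 3.03 without TSA, on the log2 scale. The list was written with earlier results of these arrays known, and the study names several of its genes, so its direction is not independent evidence. The promoters of 4 counted genes, chosen as examples and not the 4 deepest, are shown for the ISRE core that they share. The core is GAAA, any pair of bases, then GAAA, searched on both strands with overlapping matches allowed. Not every counted gene of the list held it: 19 of 26 did, in a wider window described later. Each run is the 160 bases before the RefSeq start site (GRCh38.p14) on the gene's strand, with matches to the ISRE core in capitals: ISG15 (chr1:1013337-1013496, + strand), IFIT1 (chr10:89392463-89392622, + strand), HERC5 (chr4:88456959-88457118, + strand) and IFIH1 (chr2:162318685-162318844, - strand, where the run from 76 to 67 bases before the start is a match to the κB consensus instead).
ISG15: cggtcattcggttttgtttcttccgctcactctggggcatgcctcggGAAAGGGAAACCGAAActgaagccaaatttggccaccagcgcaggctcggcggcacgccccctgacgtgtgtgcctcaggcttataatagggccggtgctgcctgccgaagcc
IFIT1: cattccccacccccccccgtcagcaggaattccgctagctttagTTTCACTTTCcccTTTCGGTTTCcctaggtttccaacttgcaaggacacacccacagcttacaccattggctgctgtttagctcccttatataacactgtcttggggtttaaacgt
HERC5: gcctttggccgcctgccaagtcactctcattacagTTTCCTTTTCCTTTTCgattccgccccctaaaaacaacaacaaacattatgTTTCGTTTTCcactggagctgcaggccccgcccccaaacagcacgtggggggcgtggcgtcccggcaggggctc
IFIH1: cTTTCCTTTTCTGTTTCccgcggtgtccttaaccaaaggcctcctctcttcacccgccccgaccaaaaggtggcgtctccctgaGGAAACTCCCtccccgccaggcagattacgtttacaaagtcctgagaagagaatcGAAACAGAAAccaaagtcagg
ISG15 and IFIT1 each held 2 matches, and HERC5 and IFIH1 each held 3. The first match begins 113 bases before the start in ISG15, 116 in IFIT1, 125 in HERC5 and 159 in IFIH1.

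IFIT1, an antiviral protein that binds foreign RNA, had levels of 8.44 in IL1_TSA and 8.16 in Con_TSA, against 12.62 in IL1 and 6.91 in Con. Its IL-1 response was 1.21-fold with TSA and 52.3-fold without TSA, an interaction of -5.43, or 43.1-fold below the additive value. These values average 2 probes, of which only 1 was detected on IL1_TSA, Con_TSA and Con. The interactions of the single probes were -5.77 and -5.09. Only the IL1 array stood high for this gene, and its level in Con_TSA lay above that in Con. HERC5, the ligase that attaches ISG15 to proteins, had levels of 10.69 and 11.02 in IL1_TSA and Con_TSA, against 13.31 in IL1 and 9.30 in Con. With TSA its IL-1 response was -0.34 on the log2 scale, and without TSA it was 4.01, giving an interaction of -4.35. Here TSA alone was the second highest of the 4 arrays, a level that the additive expectation adds to. ISG15, a ubiquitin-like modifier, had levels of 9.29 and 9.04 in IL1_TSA and Con_TSA, against 12.57 and 8.24 in IL1 and Con, an interaction of -4.07. IFIH1, the RNA sensor MDA5, had levels of 7.48 and 7.19 in IL1_TSA and Con_TSA, against 12.21 and 7.79 in IL1 and Con, an interaction of -4.13. In both genes the arrays with TSA differed from each other by under 0.30, while the arrays without TSA differed by over 4. IFI44 (-4.22), IFITM1 (-4.02), SAMD9 (-3.76), IFIT3 (-3.66), ISG20 (-3.65) and GBP5 (-3.44) completed the 10 largest departures below among genes detected on every array. The IFIT3 value averages 3 probes, with interactions of -2.23, -2.95 and -5.82. Only the probe at -2.23 was detected on all 4 arrays. The probe at -5.82 was undetected on IL1_TSA, Con_TSA and Con, so the average leans on levels under detection.

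**Figure D2:**
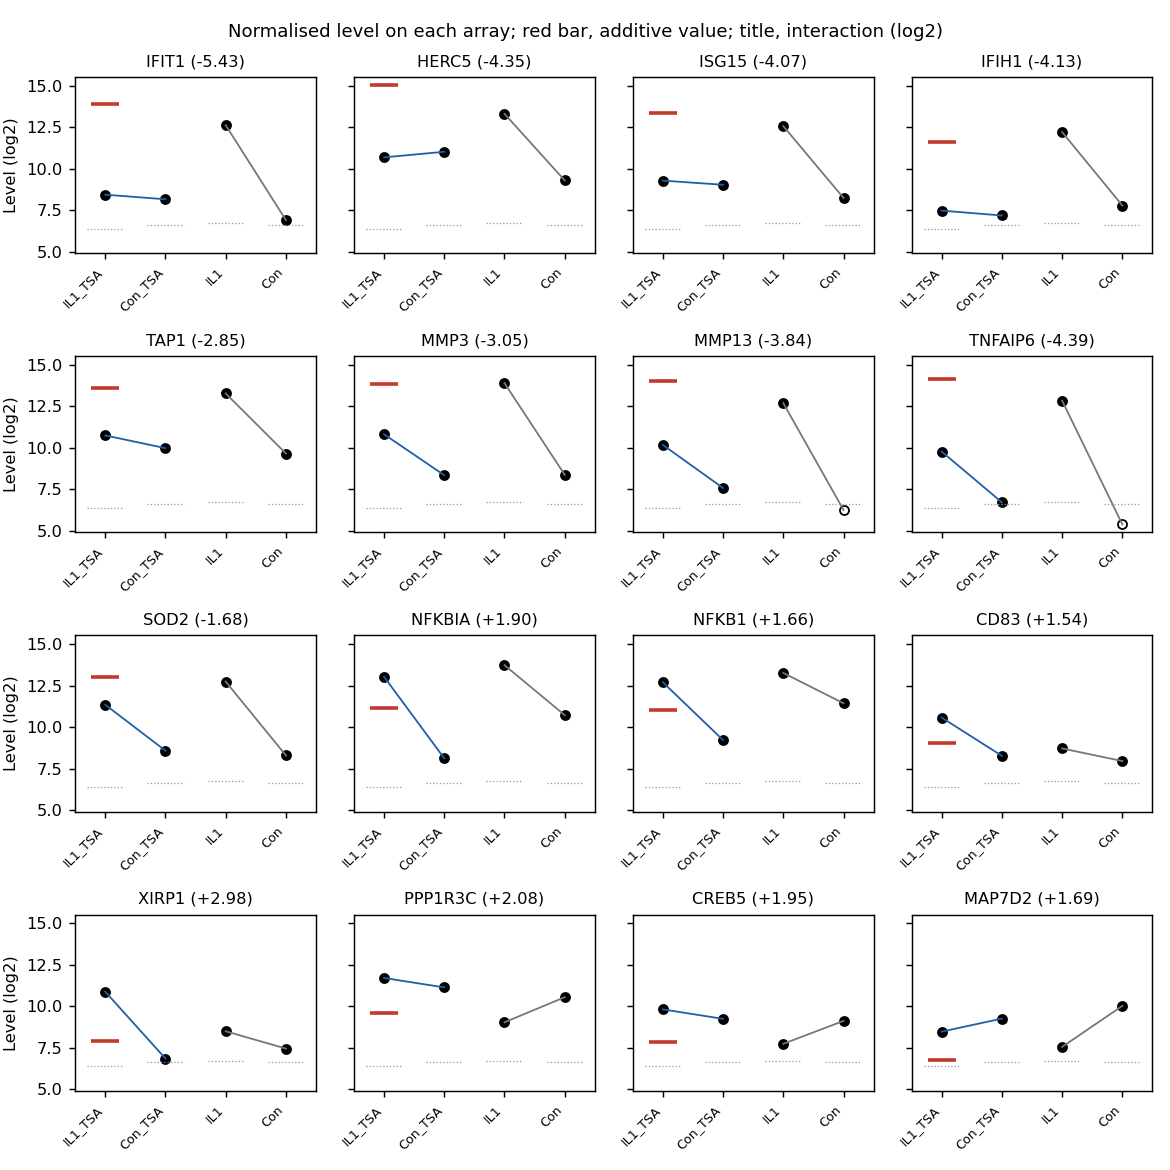
Normalised level (log2, vertical axis) of 16 genes on each of the 4 arrays, 1 array per condition, in the order IL1_TSA, Con_TSA, IL1 and Con. The red bar is the additive value for IL1_TSA, the number in each title is the interaction of the measured levels, open circles are undetected and dotted lines are the lowest detected level of each array. In IFIT1 the bar stands above the IL1_TSA point (interaction -5.43), and in XIRP1 below it (2.98).

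For 2 interferon genes the departure is given as a bound because an array fell under detection. IFI27 was at 6.11 in IL1_TSA, where it was undetected, and 6.95 in Con_TSA, against 11.41 in IL1 and 6.45 in Con, where it was undetected, so it lay at least 40.4-fold below. OASL, a relative of the OAS enzymes, was at 6.37 in IL1_TSA and 6.43 in Con_TSA, against 10.64 in IL1 and 5.13 in Con, and it lay at least 16.6-fold below. That bound takes its Con_TSA level as measured, though only 1 of its 2 probes was detected there. The level was also under the lowest detected one of that array, 6.63. Another 20 members of the list were not detected on Con_TSA, which a bound needs. RSAD2 (viperin) and MX2 were examples: RSAD2 was at 4.98 and 4.87 in IL1_TSA and Con_TSA, both undetected, against 11.52 in IL1 and 5.12 in Con. For such genes additivity was also judged on the linear scale, where the value expected for IL1_TSA is IL1 plus Con_TSA minus Con. By that measure 328 of all genes (3.24%) lay at least 2-fold below the expectation and 329 (3.25%) at least 2-fold above it, and 49 of the 56 interferon genes were among those below, with 0 above. RSAD2 stood at 1.08% of the linear expectation, or at most 2.95% with undetected levels raised to the lowest detected one, and MX2 at 1.38%, or at most 2.29%.

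The interferon genes did not behave alike. Detected members that were not counted included IRF1, a transcription factor induced directly by NF-κB, with an interaction of -0.47 and an IL-1 response of 3.90-fold with TSA and 5.40-fold without TSA. GBP1, a guanylate-binding protein, had an interaction of -0.45 and IL-1 responses of 7.24-fold with TSA and 9.88-fold without TSA. Both genes were lower in IL1_TSA than in IL1 and also lower in Con_TSA than in Con, so on the linear scale they stood at 40.4% and 31.3% of the expectation. IFI6 was flat across the arrays, at 10.43 and 10.57 in IL1_TSA and Con_TSA and at 10.12 and 10.13 in IL1 and Con. IFNB1, interferon β itself, was detected only on the IL1 array, where its level was 6.77, so no departure could be given.

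The genes of antigen presentation moved in the same direction and less far. Of 18 analysed, 9 were counted below and 0 above, against 2.17% and 1.2% of all genes, with a median of -1.05. TAP1 and PSMB9 are also members of the interferon list, so the lists are not separate. The peptide transporter genes were the furthest: TAP1 was at 10.75 and 9.99 in IL1_TSA and Con_TSA, against 13.28 and 9.67 in IL1 and Con (interaction -2.85), and TAP2 had an interaction of -2.17. The 3 inducible catalytic subunits of the immunoproteasome were all counted, PSMB9 at -2.07, PSMB8 at -1.86 and PSMB10 at -1.48. Among class I genes HLA-B (-1.76) and HLA-F (-1.70) were counted, while HLA-E was at -0.98, HLA-C at -0.96 and HLA-G at 0.78. Probes of HLA genes can share sequence with each other, so these values are not fully separate. B2M, the shared light chain, stood at -0.44.

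Of 12 matrix proteases analysed, 4 were counted below and 0 above, against 2.17% and 1.2% of all genes, with a median of -1.02. MMP3, stromelysin 1, had levels of 10.82 and 8.36 in IL1_TSA and Con_TSA, against 13.90 and 8.38 in IL1 and Con. Its IL-1 response was 5.51-fold with TSA and 45.7-fold without TSA, and the interaction was -3.05. MMP13, the principal collagenase of cartilage, had levels of 10.18 and 7.59 in IL1_TSA and Con_TSA, against 12.70 in IL1 and 6.27 in Con, where it was undetected, so it lay at least 11.1-fold below. Both proteases had an IL-1 response over 5-fold with TSA, a size that the interferon gene GBP1 also had. MMP10, stromelysin 2, was only just past the threshold at -1.03, with levels of 11.23 and 8.77 in IL1_TSA and Con_TSA and 12.77 and 9.27 in IL1 and Con. MMP9 lay at the threshold itself, and was at -0.28 in the authors' values. MMP1, the interstitial collagenase, was undetected in Con_TSA and Con, so no log2 departure was counted. Its level was 9.98 in IL1_TSA and 12.25 in IL1, and it stood at 20.7% of the linear expectation. MMP12, the macrophage elastase, was at 6.17 in IL1_TSA and 13.14 in IL1, and stood at 0.80% of it (at most 0.94% with undetected levels set as for RSAD2). The 4 proteases MMP2, MMP14, MMP15 and MMP16 had interactions between 0.05 and 0.43.

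Chemokines and cytokines were mostly undetected without IL-1, which left the log2 departure without a bound for most of them. None of the 11 chemokines or 20 cytokines and growth factors was counted on the log2 scale, against 2.17% of all genes below and 1.2% above. On the linear scale 5 chemokines lay below the expectation and 1 above it, and likewise 5 cytokines below and 1 above. Over all genes the linear shares were 3.24% below and 3.25% above. CCL8, a monocyte attractant, was at 9.20 in IL1_TSA and 15.36 in IL1, and stood at 1.40% of the expectation. CCL2, undetected in IL1_TSA, stood at 0.99% (at most 1.43% with undetected levels set as for RSAD2), at 5.87 in IL1_TSA and 12.56 in IL1. IL6 stood at 2.27%, at 8.85 in IL1_TSA and 14.31 in IL1. Going the other way, CCL20, which attracts CCR6-bearing lymphocytes, was at 13.85 in IL1_TSA and 11.07 in IL1, with 5.58 in Con_TSA and 5.57 in Con. It stood at 683% of the expectation, or at least 658% with undetected levels set to make the departure smallest. IL23A, a subunit of IL-23, was at 8.92 in IL1_TSA and 6.78 in IL1, or 436% of the expectation, and at least 251% with undetected levels set likewise. CSF3 (G-CSF) was detected in IL1_TSA alone, at 7.93, and no bound was past the threshold. CCL3 stood at 104% of the linear expectation, and was undetected in Con_TSA and Con, so no log2 departure could be given. As an average of 2 probes, CXCL8 (IL-8) was close to additive on both scales. The single probes read -0.06 and 0.87 on the log2 scale, and the probe at 0.87 was undetected on Con_TSA. CXCL8 was at 15.30 and 6.94 in IL1_TSA and Con_TSA, against 15.44 and 7.49 in IL1 and Con, giving an interaction of 0.41 that turned to -0.17 in the authors' values. Its IL-1 arrays lay near the highest level of any probe, 15.66, where differences are compressed.

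The NF-κB genes departed both ways on the log2 scale, while the counted components of IL-1 signalling all lay below. Of 18 IL-1 signalling genes, 3 were counted below and 0 above, against 2.17% and 1.2% of all genes. MYD88, the receptor adaptor, was at 7.50 and 7.58 in IL1_TSA and Con_TSA, against 11.26 and 9.17 in IL1 and Con (-2.17). IRAK2, a kinase of the receptor complex, was at 10.12 and 8.56 in IL1_TSA and Con_TSA, against 11.37 and 7.64 in IL1 and Con (-2.16), and the kinase MAP3K8, undetected in Con, lay at least 2.04-fold below, though at 61.9% of the linear expectation, where it was not counted. MYD88 showed no IL-1 response with TSA beyond 1.5-fold, whereas IRAK2 kept one of 2.95-fold. The kinases TRAF6 signals through and their scaffold, MAP3K7, CHUK, IKBKB and IKBKG, had interactions between -0.45 and 0.35. Of 23 NF-κB subunits and feedback genes, 6 were counted below and 2 above, with a median of -0.44. Those below included TNFAIP6, a hyaluronan-binding anti-inflammatory protein (at least 8.96-fold below), GCH1 (at least 3.97-fold below), SOD2, the mitochondrial superoxide dismutase (-1.68), and the NF-κB subunit RELA (-1.56). The bound for GCH1 takes its Con_TSA level of 6.53 as measured, though only 1 of its 3 probes was detected there. The 2 above were NFKBIA, which encodes IκBα, and NFKB1, which encodes p105 and p50. The 160 bases before their RefSeq start sites (GRCh38.p14) are shown because both genes are known NF-κB targets and hold a match to the κB consensus, in capitals: NFKBIA (chr14:35404750-35404909, - strand) and NFKB1 (chr4:102501199-102501358, + strand).
NFKBIA: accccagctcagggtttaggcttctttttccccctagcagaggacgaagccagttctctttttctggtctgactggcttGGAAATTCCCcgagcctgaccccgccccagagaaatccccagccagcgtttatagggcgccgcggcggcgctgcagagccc
NFKB1: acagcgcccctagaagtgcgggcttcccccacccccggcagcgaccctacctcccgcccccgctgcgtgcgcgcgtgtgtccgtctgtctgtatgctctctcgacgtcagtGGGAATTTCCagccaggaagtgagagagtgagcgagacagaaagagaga
Neither run holds the ISRE core. The match lies from 81 to 72 bases before the start of NFKBIA and from 49 to 40 bases before that of NFKB1.

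NFKBIA had levels of 13.03 in IL1_TSA and 8.12 in Con_TSA, against 13.73 in IL1 and 10.72 in Con. Its IL-1 response was 30.1-fold with TSA and 8.04-fold without TSA, an interaction of 1.90, whereas on the linear scale it stood at 68.9% of the expectation, under rather than over it. NFKB1 had levels of 12.70 and 9.22 in IL1_TSA and Con_TSA, against 13.26 and 11.43 in IL1 and Con. Its IL-1 response was 11.2-fold with TSA and 3.55-fold without TSA, an interaction of 1.66, and on the linear scale it too stood under the expectation, at 87.1%. In both genes IL1_TSA was lower than IL1, and the departure came with a level in Con_TSA more than 2 log2 units under that in Con. NFKBIZ, an atypical IκB protein, had an interaction of 0.73 and stood at 161% of the linear expectation, and was not counted.

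XIRP1, an actin-binding protein of striated muscle, had the largest departure above. It was at 10.88 in IL1_TSA and 6.86 in Con_TSA, against 8.50 in IL1 and 7.45 in Con. Its IL-1 response was 4.02 with TSA and 1.04 without TSA on the log2 scale, an interaction of 2.98, and it stood at 625% of the linear expectation. The IL1_TSA array alone was high, so this gene departed upward on both scales. CD83, a maturation marker of dendritic cells that was picked out after its values were seen, had the same pattern with 2 probes: 10.57 and 8.27 in IL1_TSA and Con_TSA, against 8.72 and 7.96 in IL1 and Con, an interaction of 1.54 and 317% of the linear expectation.

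Most other genes above were at least 1.5-fold lower in IL1 than in Con, and within 1.5-fold between IL1_TSA and Con_TSA. PPP1R3C, a glycogen-targeting subunit of protein phosphatase 1, had levels of 11.70 and 11.14 in IL1_TSA and Con_TSA, against 9.04 and 10.55 in IL1 and Con (2.08). CREB5, a leucine zipper transcription factor, had 9.82 and 9.24 in IL1_TSA and Con_TSA, against 7.74 and 9.12 in IL1 and Con (1.95). In both the IL1 array alone was low. TUBA4A, an α-tubulin, had 9.26 and 9.03 in IL1_TSA and Con_TSA, against 7.25 and 8.75 in IL1 and Con (1.73), and PRAG1 had an interaction of 1.74. EBF2, a transcription factor, was detected by only 1 of its 2 probes on IL1 and was at least 1.40 above. CFL2, the muscle cofilin, was at 7.68 and 6.63 in IL1_TSA and Con_TSA, against 7.21 and 8.02 in IL1 and Con (1.86). There Con was the highest array, as it was for ITPRID2 (1.76) and MAP7D2 (1.69). Genes undetected on IL1 gave bounds: NAP1L3 was at least 1.74 above, PDK4, which restrains pyruvate oxidation, at least 1.40, ZNF703 at least 1.29, DCAF4 at least 1.16 and PHETA1 at least 1.14. PDK4 had 8.86 and 8.88 in IL1_TSA and Con_TSA, against 5.66 (undetected) in IL1 and 8.14 in Con. The linear scale counted 63 of the 122 genes above and 174 of the 220 below in the same direction and none in the opposite one. For 29 of the 122 the linear expectation was not above 0, so no ratio could be formed.

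A list of Wnt pathway genes was put together after the values were seen, so its counts support nothing. Of 43 analysed, 6 were counted above and 1 below, against 1.2% and 2.17% of all genes, and the median interaction was 0.33, with 11 genes under 0. The ligand WNT7A was at 8.76 and 8.56 in IL1_TSA and Con_TSA, against 8.23 and 9.43 in IL1 and Con (1.40). The receptors FZD6 (1.32) and ROR1 (1.30), the feedback inhibitor AXIN2 (1.01), the co-repressor TLE1 (1.06) and DAAM2 (1.00) were also above, and the ligand RSPO3 was below (-2.22). The IL-1 responses of the 6 genes above lay between -0.41 and 0.57 with TSA, and between -1.48 and -0.76 without TSA, on the log2 scale. In the authors' values the list's median was 0.08.

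The other lists held few counted genes. Few were counted among all genes too, 1.2% above and 2.17% below, so low counts in lists of this size say little about the families. None of 14 HDAC and sirtuin genes was counted, and HDAC6, the deacetylase the study centres on, had levels of 7.25 and 7.41 in IL1_TSA and Con_TSA, against 7.30 and 7.88 in IL1 and Con (0.42). Of 20 immediate early transcription factors, 1 was counted below, ATF3 (-1.48), while JUN was at -0.06 and FOS at 0.21. FOS was high in both arrays with TSA, at 9.60 and 9.21 in IL1_TSA and Con_TSA, against 7.12 and 6.93 in IL1 and Con, and so was raised with TSA and still additive. None of 15 MAP kinase phosphatases and feedback genes was counted, with a median of 0.39. Of 17 genes raised by HDAC inhibitors in other systems, TXNIP was counted below (-1.14). The lists of heat shock genes (DNAJB4 at 1.11, DNAJA1 at -1.03), neuronal genes (TUBB4A at 1.26), unfolded protein genes (DNAJB9 at -1.14), histone genes (H2AC18 at -1.01), mRNA decay regulators (N4BP1 at -1.72) and BMP, TGF-β and ID genes (ANKRD1 at -1.35) held no other counted gene. None was counted among 28 cell cycle and replication genes, 17 cholesterol synthesis genes, 6 metallothioneins and 11 acetyltransferases and BET readers.

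**Figure D3:**
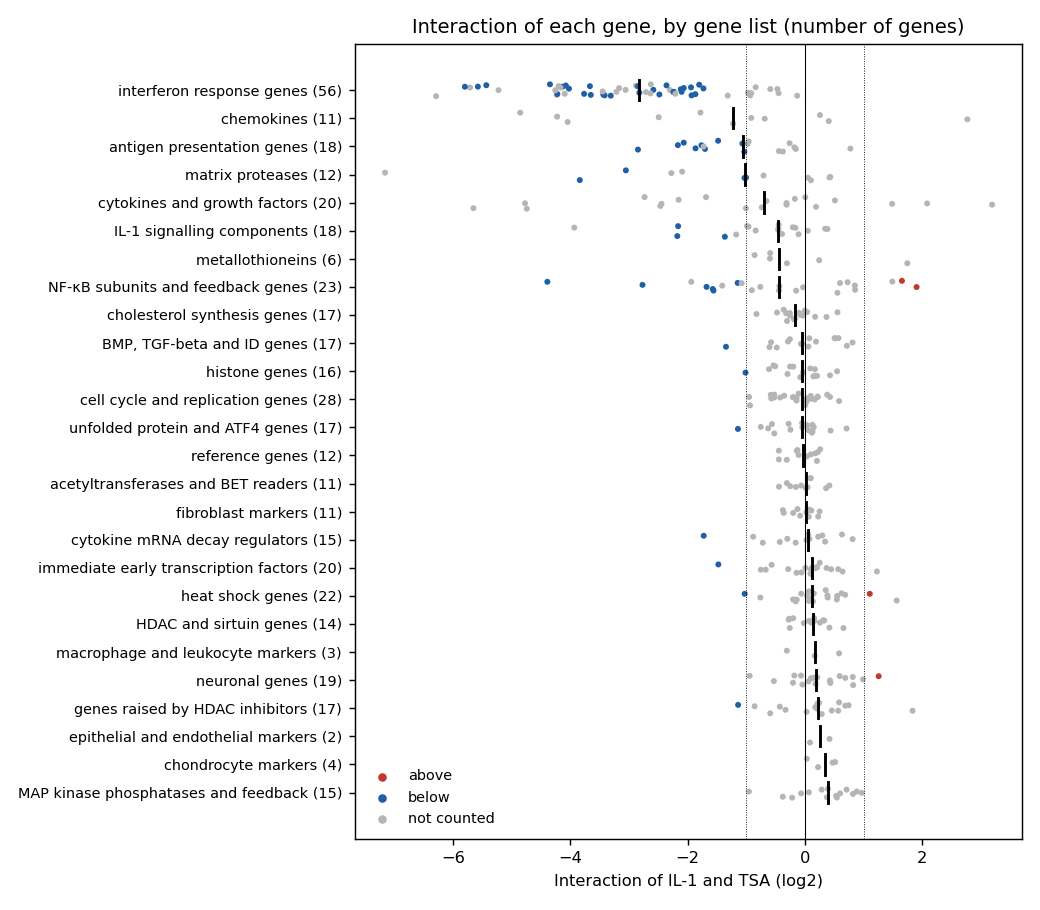
Interaction (log2, horizontal axis) of each analysed member of the 26 gene lists, 1 point per gene, with the list's median as a black bar and the number of genes in brackets. Dotted lines are 2-fold departures, and grey points outside them were undetected on an array that the counting rule needs or came under 2-fold as a bound. All 56 interferon response genes lie left of 0, with a median of -2.83, while the 12 reference genes have a median of -0.04.

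Promoters were then compared over the RefSeq window from 250 bases before to 50 bases after the start. At least 1 window was given for 8365 of the 10128 genes, and a gene held a motif if any of its windows did, on either strand. The ISRE core was held by 4.04% of all genes, by 2.15% of the genes above (2 of 93) and by 25.6% of the genes below (45 of 176). It was held by 73.1% of the interferon list's genes below (19 of 26), and by 17.3% of the genes below outside that list (26 of 150). The κB consensus was held by 17.0% of all genes, by 25.8% of those above (24 of 93) and by 16.5% of those below (29 of 176). The AP-1 motif (TGANTCA) was held by 7.36% of all genes, 9.68% of those above and 10.8% of those below, and the TATAAA box by 8.93%, 10.8% and 15.3%. Median GC content was 64.3% over all genes, 64.8% above and 62.7% below, and 56.4% in the interferon genes below. These shares are descriptions, with no test, and a match is not evidence of binding.

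Technical precision was estimated from genes with several probes. Over 2370 such genes, the interaction read by 1 probe had an SD of 0.37 on the log2 scale, from 0.57 in genes with a mean level under 7 to 0.22 in those over 12. This covers probe error on the same 4 hybridisations and not variation between cultures, which was not measured. Counts made on 1 probe were checked on another probe of the same gene: of 71 above, 87.3% had the same sign on the other probe, 57.7% were past 1.5-fold and 22.5% were counted there too. Of 111 below, the shares were 90.1%, 77.5% and 41.4%. Among the counted genes 95 of the 122 above and 160 of the 220 below rested on 1 probe. In the authors' deposited values all 220 genes below were under 0 and all 122 above were over 0. Those values come from the same 4 hybridisations, and the genes were chosen for their departure, so the shared sign is no independent check. Past 1.5-fold in those values were 149 of the 220 and 43 of the 122, and the median departure was -0.80 below and 0.50 above.

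**Figure D4:**
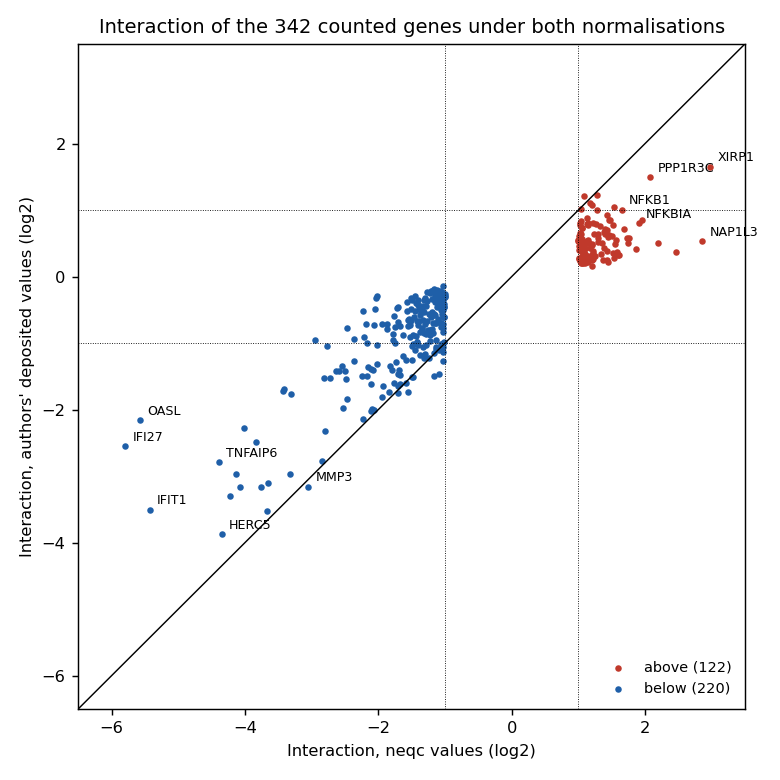
Interaction of the 342 counted genes in the authors' deposited values (vertical axis, log2) against that in the values used here (horizontal axis, log2), with the line of equality and dotted lines at 2-fold. Every point has the same sign on both axes, and most lie nearer to 0 on the vertical axis, with medians of -0.80 and 0.50 for the genes below and above. Both axes come from the same hybridisations, so the shared sign is no independent check.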

How the data were processed

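Gene expression was measured in 4 SW1353 samples on Illumina arrays, 1 per condition, grouped by the labels. The authors deposited probe intensity values for 48784 probes, not normalised between arrays, with a deposited detection p-value for each probe and array. The authors also deposited log2 values from lumi (variance stabilising transformation, robust spline normalisation, version not given in the sources used here).

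Intensities were normalised with neqc of limma 3.58.1 (R 4.3.3): normexp background correction with controls inferred from the detection p-values, offset 16, quantile normalisation and log2. Tables were handled in Python 3.11.15 with pandas 2.3.3. Probes under a detection p-value of 0.01 on at least 1 array were kept (15088), of which 12953 had 1 gene. Kept probes were averaged to give the level of a gene. Genes were named from the supplied platform annotation, which lists 27578 probes (27565 with 1 gene, 13 with several) and leaves 21206 unnamed, and 27528 matched RefSeq by gene number with 0 symbols changed. The methods name a later array design than this annotation.

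For a departure above, IL1_TSA and Con had to be detected, and IL1 and Con_TSA were raised to the lowest level of a detected probe on their array where they lay under it. The rule for below is the mirror. A bound existed for 8801 genes above and 8499 below, and for 1188 in neither direction. Bounds hold on the normalised scale used. No test was run, since there is 1 array per condition, and the number of arrays limits the precision.

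Named genes were the 10 largest departures each way among genes detected on all 4 arrays with probes of 1 sign, the 5 largest bounds each way, 12 genes of the study's interest and up to 4 members of each of 26 lists. Other genes were named after their values were seen. The members and lists were chosen with earlier results of these data known. Promoters come from RefSeq (GRCh38.p14). The counting steps were tested on simulated data. In all, 11 alternatives were run as planned, and the shifted median scaling and the placing of IL-1 responses with undetected levels raised were chosen after seeing the data.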

Additional observations from a re-analysis of the deposited data

Results flagged for a closer look

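In 17 counted genes the IL-1 response ran at least 1.5-fold one way with TSA and at least 1.5-fold the other way without it. With 1 array per condition the difference was not tested. With undetected levels raised to the lowest detected level of their array, an alternative chosen after seeing the data, 14 of the 17 still ran both ways and IFI27, CIART and TSPAN14 did not.

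In 8 of them the response was downward with TSA and upward without TSA, on the log2 scale. IFI27 had -0.84 with TSA and 4.95 without TSA (interaction -5.80). CIART had -0.97 with TSA and 1.05 without TSA (interaction -2.02). TNFRSF14 had -0.66 with TSA and 1.11 without TSA (interaction -1.77). ANKFY1 had -0.65 with TSA and 1.10 without TSA (interaction -1.75). N4BP1 had -0.68 with TSA and 1.05 without TSA (interaction -1.72). TRADD had -0.70 with TSA and 0.97 without TSA (interaction -1.67). RAD9A had -0.65 with TSA and 0.90 without TSA (interaction -1.55). NAPA had -0.63 with TSA and 0.77 without TSA (interaction -1.40). TRADD is the adaptor of the TNF receptor and TNFRSF14 a receptor of the same family. IFI27 was undetected on IL1_TSA and Con, and with those levels raised its response was -0.56 with TSA (1.47-fold) and its departure was at least 40.4-fold. CIART was undetected on Con, and with that level raised its response without TSA was 0.21.

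In the other 9 the response was upward with TSA and downward without TSA. NAP1L3 had 0.75 with TSA and -2.11 without TSA (interaction 2.86). CFL2 had 1.05 with TSA and -0.81 without TSA (interaction 1.86). ITPRID2 had 0.69 with TSA and -1.07 without TSA (interaction 1.76). AKR1B15 had 0.72 with TSA and -0.82 without TSA (interaction 1.54). FAM9B had 0.83 with TSA and -0.64 without TSA (interaction 1.47). MBNL2 had 0.68 with TSA and -0.78 without TSA (interaction 1.46). TSPAN14 had 0.67 with TSA and -0.77 without TSA (interaction 1.44). CDYL had 0.80 with TSA and -0.64 without TSA (interaction 1.44). ARPIN had 0.70 with TSA and -0.65 without TSA (interaction 1.35). NAP1L3 and TSPAN14 were undetected on IL1, and with that level raised their responses without TSA were -0.99 and -0.41. Of the 17 genes, MBNL2 and TRADD had 2 probes each and the others 1.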

How the results depend on the processing

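The count above moved most. It was 122, and became 43 without background correction, 73 with an offset of 50, 246 with a detection p-value under 0.05, 698 with median scaling, 11 in the authors' values, 329 on the linear scale, 707 at 1.5-fold, 2 at 4-fold and 263 with no rule on detection. The count below was 220, and became 149 without background correction, 174 with an offset of 50, 348 with a detection p-value under 0.05 and 117 with median scaling. It was 89 in the authors' values, 328 on the linear scale, 673 at 1.5-fold, 50 at 4-fold and 416 with no rule on detection. Median scaling shifted to the same median gave 134 and 219. All 122 genes above were counted again under median scaling, and 10 of them in the authors' values, as were 117 and 85 of the 220 below. Median scaling moved the median interaction of all genes from 0.05 to 0.44. Its recount therefore favoured genes above over genes below and is no check on either. For the lists, the median of the interferon genes became -2.15 without background correction, -1.59 in the authors' values and -2.30 over genes with probes detected on all 4 arrays. In the authors' values the median was -0.47 for matrix proteases, -0.45 for chemokines and -0.55 for antigen presentation. Chemokines detected on all 4 arrays, 2 genes, had a median of -0.49, and the NF-κB list had -0.85 on the linear scale. Of 982 values of 128 named genes under the alternatives, 716 moved by less than the probe SD, 264 moved by more, and 2 values of counted genes reversed: NFKBIA to -0.54 and NFKB1 to -0.20, both on the linear scale, which adds levels and not their logs. Another 13 values, of 7 named genes that were not counted, also turned sign, among them CXCL8 and HDAC9 (0.66, and -0.17 in the authors' values). For other moves the cause was not tested. No paired analysis was possible because every label gives replicate 1, with 1 array in each condition, and for the same reason no array could be left out. Dim probes limit precision, with a probe SD of 0.57 under a level of 7.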

Other observations

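Gene families picked out after their values were seen are given as values only, beside 2.17% of all genes below and 1.2% above. The complement C1 protease genes C1S (-1.54) and C1R (-1.41), whose products start the classical pathway, were below, as was the C1R-like gene C1RL (-1.03). C1S was at 8.10 and 8.20 in IL1_TSA and Con_TSA, against 9.73 and 8.29 in IL1 and Con. Of 35 TRIM genes analysed, 6 were below and 0 above, led by TRIM21 (-2.48) and TRIM5 (-2.19), while the family's median was -0.11 and 15 genes lay over 0. Of 11 PARP genes, 4 were below, led by PARP12 (-2.54) and PARP14 (-2.36). Of 3 STEAP metalloreductases, STEAP1 (-1.22) and STEAP2 (-1.29) were below and STEAP3 was at -0.04. Of 173 solute carriers, 5 were below and 2 above, shares near those of all genes, and 108 lay over 0. Of 257 ZNF zinc finger genes, 2 were above and 0 below.

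ANKRD1, a cardiac ankyrin repeat protein also made in fibroblasts, departed below without an IL-1 response in the absence of TSA: it was at 8.31 and 9.82 in IL1_TSA and Con_TSA, against 9.16 and 9.32 in IL1 and Con. TXNIP, an inhibitor of thioredoxin, was lower with IL-1 in both settings, at 6.60 and 8.77 in IL1_TSA and Con_TSA, against 7.37 and 8.39 in IL1 and Con. CA2, among the 5 largest bounds below, was at 9.23 and 8.47 in IL1_TSA and Con_TSA, against 9.88 and 6.17 in IL1 and Con. It was undetected in Con and lay at least 5.64-fold below, but was not counted on the linear scale.

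Of 2135 kept probes without a single annotated gene, 23 (1.08%) were above the additive value and 38 (1.78%) below it.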
